A study of Caenorhabditis elegans with 2 samples.

Results

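AHA-1 peaks were examined at the genes of the CDC-48 segregase and its cofactors in Caenorhabditis elegans. The genes described here are cdc-48.1, cdc-48.2, cdc-48.3, ufd-1, npl-4.1, npl-4.2, ufd-2 and ufd-3, 8 of the 19973 protein-coding genes on the nuclear chromosomes. They were taken by name, and a peak was assigned to a gene when its summit lay inside the gene or within 3000 bp of one of its transcript starts.

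CDC-48, known in mammals as p97 or VCP, is a ring-shaped AAA ATPase that pulls ubiquitin-tagged proteins out of complexes, membranes and chromatin, mostly to hand them to the proteasome. Cofactors steer it. UFD-1 and NPL-4 form the adaptor that brings ubiquitinated substrates to the ring, UFD-2 lengthens ubiquitin chains, and UFD-3 is the worm relative of yeast Doa1 and mammalian PLAA, which also bind ubiquitin and CDC-48. In worms, CDC-48 with UFD-1 and NPL-4 is known for endoplasmic reticulum-associated degradation and for removing replication proteins from chromatin.

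The peaks came from chromatin immunoprecipitation with sequencing (ChIP-seq) of AHA-1, the worm ARNT orthologue. AHA-1 is a bHLH-PAS transcription factor that binds DNA as a partner of HIF-1, AHR-1 or CKY-1. The animals were whole L4 larvae, mixed in sex, of strain OP124. They carried unc-119(ed3) III and the transgene wgIs124, which supplies eGFP-tagged aha-1. There were 2 biological replicates of this 1 group and no comparison condition. Whether the antibody, labelled aha-1, also took down untagged protein is not known, and the labels do not name the promoter that drives the tagged gene. A peak from whole animals averages over all tissues, so a site used in few cells and a weak site used in many cannot be told apart.

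Each replicate and the pooled alignments had a list of 30000 peaks, called candidates here because the authors deposited the pooled list as peaks and background. Peaks were ranked by the authors' signal value, with rank 1 the strongest. Signal in the pooled list ran from 4.85 to 368 with a median of 7.08. The 530 strongest made up the list thresholded by IDR, whose weakest peak had a signal of 25.25, with 25.24 at the next candidate below. Replicate 1 peaks had a median signal of 3.91 and replicate 2 peaks one of 4.87. Signal values are therefore compared only within a list. The set of genes was selected on signal and rank in these lists, so both are given as a description with no test.

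In all, 18 candidates fell at the 8 genes. Every gene had at least 1, as did 82.6% of all protein-coding genes under the same rule. An IDR peak was assigned to 2 genes, cdc-48.1 and ufd-3, while 4.25% of all protein-coding genes had one. The peak at cdc-48.1 was far stronger than any other of the 18. A peak among the 530 strongest of replicate 1 was assigned to the same 2 genes (4.06% of all genes), and one among the 530 strongest of replicate 2 to cdc-48.1 alone (4.2% of all genes). The median best rank was 10594.5 over the 8 genes and 8576.5 over the 16506 genes with a candidate. The former took in npl-4.1 (18157) and npl-4.2 (9896), whose upstream sequences are the same. Peaks at their promoters could therefore not be assessed. Of the rest, cdc-48.1 (11), ufd-3 (288) and ufd-2 (1965) ranked stronger than 8576.5, and ufd-1 (11293), cdc-48.3 (16304) and cdc-48.2 (20383) weaker. The medians thus do not tell whether these genes as a list ranked above or below all genes with a candidate. The median signal of the 18 candidates was 7.4, close to that of all candidates.

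**Figure D1:**
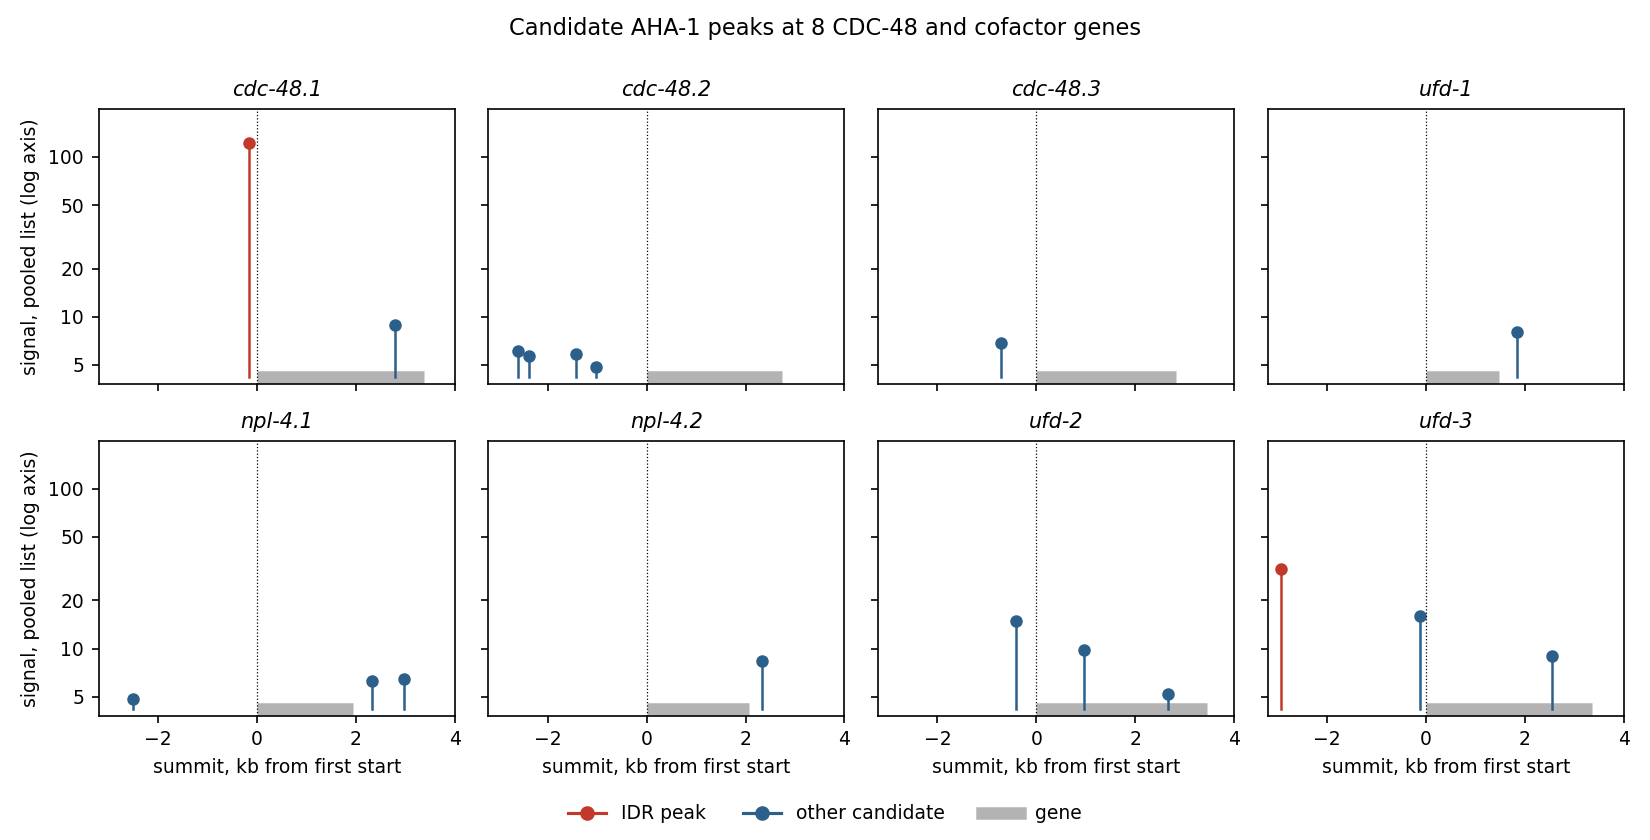
Signal of every candidate peak in the pooled list (log axis) against the position of its summit in kb from the gene's first annotated start, along the direction of transcription, 1 panel per gene. The grey bar is the gene and red marks IDR peaks. The cdc-48.1 peak of signal 122 stands 169 bp upstream of the start, ufd-3 has a red peak 2927 bp upstream, and the candidates of cdc-48.2, cdc-48.3, ufd-1, npl-4.1 and npl-4.2 all stand below 10.

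The sequences under the peaks that carry these differences are printed from the RefSeq genome (WBcel235), each in the direction of its gene. The cdc-48.1 peak is given whole (chrII:10563496-10563658, minus strand). The stretch at the same distances, 89 to 251 bp, upstream of its paralogue cdc-48.2 (chrII:8138245-8138407, plus strand) is given for comparison, although no candidate was called there. The next 3 are the 101 bp around the summits of the IDR peak of ufd-3 (chrII:9937776-9937876), the candidate just upstream of ufd-3 (chrII:9940579-9940679) and the candidate upstream of ufd-2 (chrII:8062275-8062375), all on the plus strand. Capitals mark the core motif, ACGTG or GCGTG, read on either strand, so that it appears as CACGT or CACGC where it lies on the other strand.
cdc-48.1 peak: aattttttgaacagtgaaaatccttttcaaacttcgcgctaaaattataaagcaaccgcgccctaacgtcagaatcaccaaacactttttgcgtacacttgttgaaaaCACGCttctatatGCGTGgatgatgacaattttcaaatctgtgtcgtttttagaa
cdc-48.2 upstream: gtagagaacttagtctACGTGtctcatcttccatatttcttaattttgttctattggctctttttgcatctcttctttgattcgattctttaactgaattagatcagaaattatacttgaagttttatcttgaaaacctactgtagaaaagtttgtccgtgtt
ufd-3 distal: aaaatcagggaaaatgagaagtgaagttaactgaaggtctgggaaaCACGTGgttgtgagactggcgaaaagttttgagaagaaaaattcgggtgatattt
ufd-3 promoter: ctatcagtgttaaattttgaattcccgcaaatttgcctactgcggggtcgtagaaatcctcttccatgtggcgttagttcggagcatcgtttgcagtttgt
ufd-2 promoter: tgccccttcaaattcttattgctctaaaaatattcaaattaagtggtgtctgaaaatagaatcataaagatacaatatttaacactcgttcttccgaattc

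The cdc-48.1 peak holds a pair of GCGTG cores on opposite strands, and the ufd-3 distal peak a CACGTG palindrome at its centre. The windows of the ufd-3 and ufd-2 promoters hold no core, and that of cdc-48.2 holds a lone ACGTG at its far end. Dimers of ARNT-type proteins are known to bind cores of this kind, and the letters alone do not tell the partner. Which partner of AHA-1, if any, was present at these peaks was not measured. A match is a description of the sequence and not a measured site.

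Of the ATPase genes, cdc-48.1 (WBGene00007352, chrII:10560036-10563407, minus strand) encodes a CDC-48 subunit itself. The summit of its strong peak lay at chrII:10563576, between genes and 169 bp upstream of its only annotated start. The peak had a signal of 122 and rank 11 in the pooled list, a signal of 44.1 and rank 21 in replicate 1, and a signal of 76.2 and rank 5 in replicate 2. The replicate summits lay 0 and 4 bp from the pooled summit, so position and standing were alike in both. By its strongest peak cdc-48.1 was in place 18 of the 16506 genes with a candidate. In the pooled list the peak was 163 bp wide, narrower than the 316 bp of each of the other 17. The replicate 1 peak was wider (chrII:10563424-10563727) and the replicate 2 peak was not (chrII:10563496-10563650). The pooled summit also lay within the window of C06A1.6, at 1102 bp past its start, and of C06A1.7, at 1315 bp before its start. Among protein-coding genes, the start of cdc-48.1 was the nearest. The snoRNA gene C06A1.9 stood 512 bp away, and whether it contributes to the peak was not tested.

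The other candidate of cdc-48.1 was weak. Its summit lay in a coding exon at 2782 bp past the start, with a signal of 8.94 and rank 8323. Its counterparts had ranks 8782 in replicate 1 and 6500 in replicate 2, with summits at 90 and -57 bp from the pooled one. It stood 92 bp from C06A1.8, a snoRNA gene annotated within cdc-48.1, and whether that gene contributes to the peak was not tested.

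The paralogue cdc-48.2 (WBGene00008053, chrII:8138496-8141230, plus strand) also encodes a CDC-48 subunit, and the products of the pair are known to act redundantly in the worm. Its protein of 810 residues was 88.1% identical to the 809 residues of CDC-48.1. The 300 bp upstream of the starts were 50.1% identical, near the 50.9% to 54.7% of the pairs with cdc-48.3. No candidate summit lay within 1000 bp upstream of cdc-48.2. Its 4 candidates had summits at -2604, -2381, -1423 and -1031 bp, signals of 6.13, 5.72, 5.86 and 4.89, and ranks between 20383 and 29649. All 4 were nearer the start of ctns-1, which encodes the worm cystinosin, a lysosomal cystine transporter. A single replicate 2 peak, of rank 16934, overlapped the first pair of them. A replicate 1 peak of rank 17629 overlapped the candidate at -1031 bp and had its own summit at -798 bp, and the candidate at -1423 bp had no counterpart in either replicate. Replicate 1 also had a peak of signal 2.94 and rank 23940 at 2420 bp past the start, which overlapped no candidate. Every one of these values lay below the median signal of its list. The strongest peaks of the paralogues thus differed in signal as 122 against 6.13 in the pooled list, 44.1 against 3.59 in replicate 1 and 76.2 against 4.56 in replicate 2.

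CDC-48.3 is a more distant AAA ATPase, known in worms for binding and inhibiting the Aurora B kinase AIR-2. Its protein of 724 residues was 26.3% identical to CDC-48.1 and 25.8% identical to CDC-48.2. The gene cdc-48.3 (WBGene00010562, chrI:8032863-8035696, minus strand) had a lone candidate, with a signal of 6.82, rank 16304 and a summit 710 bp upstream of the start. The summit lay inside a coding exon of K04G2.4, whose start was nearer, at 608 bp, and 2504 bp past the start of ath-1. The counterpart of this candidate in replicate 2 had rank 23615, and replicate 1 had none there. Replicate 1 instead had a peak of rank 7629 at 2442 bp past the start, which overlapped no candidate. No sequence is shown for this gene.

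**Figure D2:**
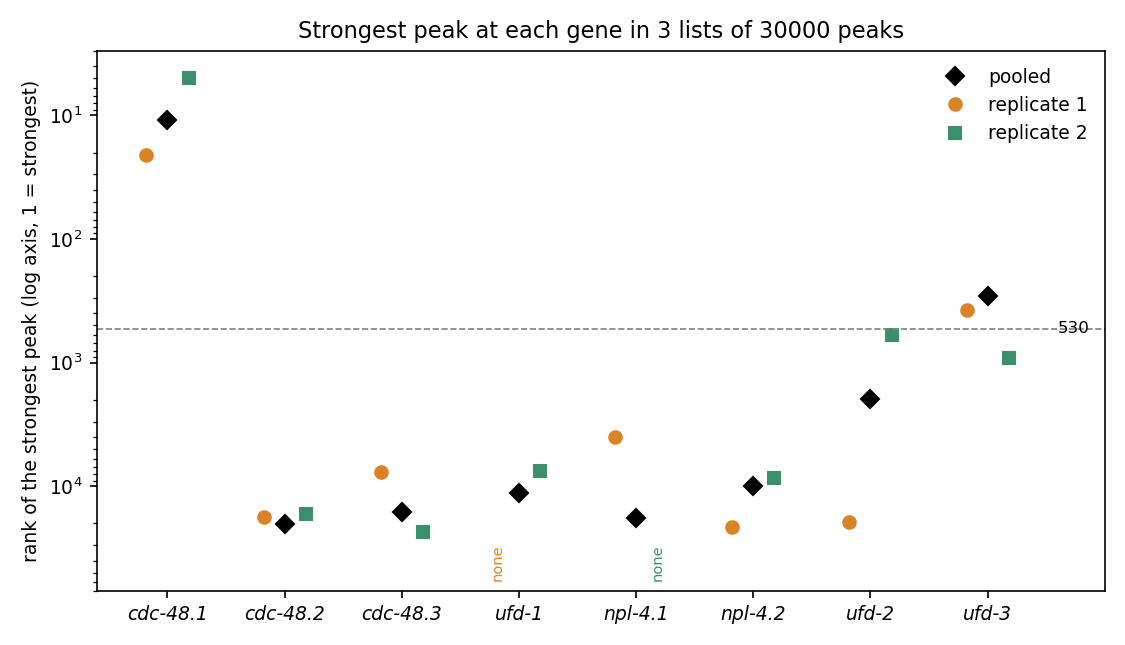
Rank of the strongest assigned peak (log axis, rank 1 at the top) of each gene in the pooled list, replicate 1 and replicate 2, with a dashed line at rank 530 and "none" where a list had no peak at the gene. All 3 symbols of cdc-48.1 lie at rank 21 or stronger, those of cdc-48.2 between 16934 and 20383, and those of ufd-2 run from 595 to 19533.

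Among the adaptors, ufd-1 (WBGene00006733, chrIV:12329408-12330890, minus strand), whose product pairs with NPL-4, had a lone candidate beyond its 3′ end, with a summit 1732 bp past the nearer of its starts. It had a signal of 7.99 and rank 11293, and also lay 1811 bp past the start of F19B6.3. The counterpart in replicate 2 had a signal of 6.56 and rank 7596. Replicate 1 had no peak at ufd-1 at all. Upstream of the gene, only replicate 2 had a peak, of rank 17917 at -1425 bp.

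The NPL-4 subunit is encoded by a near-identical pair, npl-4.1 (WBGene00019120, chrII:5631351-5633284) and npl-4.2 (WBGene00019121, chrII:5622889-5624959), both on the plus strand. The 529-residue proteins shared 524 residues, and the 300 bp upstream of the starts were 100% identical. The shared stretch began 1325 bp upstream of each gene, covered 3307 bp at npl-4.1 and 3359 bp at npl-4.2, and 91% and 90.3% of its 36-base words occurred in the other copy. Not a single summit of the pooled list or of either replicate lay in these stretches. Candidates over the 6 nuclear chromosomes stood on average 3342 bp apart, about the length of these stretches. Reads from these stretches could come from either copy, and peaks at the npl-4 promoters could therefore not be assessed. Of all 36-base words in the bodies of the other 6 genes, none occurred elsewhere in the genome.

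Outside the shared stretch, npl-4.1 had 3 candidates, with signals of 6.49, 6.29 and 4.86 and ranks 18157, 19357 and 29974, at 2977, 2325 and -2498 bp. Of the 36-base words in the peak of rank 18157, 13.9% also occurred elsewhere in the genome. So did 1 word of the peak of rank 19357. The candidate at 2325 bp overlapped a replicate 1 peak of rank 3977 and no replicate 2 peak. That at 2977 bp overlapped a replicate 2 peak of rank 14701 and no replicate 1 peak, and that at -2498 bp had neither. The lone candidate of npl-4.2, at 2324 bp past the start, had a signal of 8.4 and rank 9896. Its counterparts were of rank 22621 in replicate 1 and 8554 in replicate 2. Replicate 1 also had peaks of ranks 21461 and 22082 at -2478 and -2274 bp from npl-4.2, which overlapped no candidate. All 4 candidates thus lay past the genes or inside a neighbour, none at a promoter of the pair. The windows of F59E12.8, F59E12.6, F59E12.15 and eif-3.L took in 1 or more of these candidate summits. That at -2498 bp from npl-4.1 was nearest the start of F59E12.15, and that at 2977 bp nearest the start of F59E12.8, at 2592 bp.

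Of the cofactors that act on the ubiquitin chain, ufd-3 (WBGene00007333, chrII:9940753-9944107, plus strand) had the other IDR peak. Its summit, at chrII:9937826, lay between genes and 2927 bp upstream of the first ufd-3 start, just inside the window. It had a signal of 31.3 and rank 288 in the pooled list, 15 and 374 in replicate 1, and 12.9 and 913 in replicate 2. In replicate 2 it was thus outside the 530 strongest. The genes nearer this summit were C05C10.3, with its start at 933 bp, C05C10.7, at 1145 bp, and C05C10.5, at 1214 bp. With the nearest start as the rule, the peak would not count for ufd-3.

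The candidate at the ufd-3 promoter itself had its summit 124 bp upstream of the start. It had a signal of 16.1 and rank 1566. In replicate 1 the counterpart had a signal of 12.8 and rank 573, with the summit at the same base. In replicate 2 the overlapping peak had a signal of 4.7 and rank 16006, so the replicates stood far apart here. A further candidate, of signal 8.98 and rank 8244, lay in a coding exon 294 bp past an internal start and overlapped a replicate 2 peak of rank 12429 and no replicate 1 peak. It also fell in the window of flad-1, at -828 bp.

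The gene ufd-2 (WBGene00006734, chrII:8062741-8066193, plus strand), whose product extends ubiquitin chains, had a promoter candidate 416 bp upstream of its start, with a signal of 14.8 and rank 1965. In replicate 2 it had a signal of 14.9 and rank 595, with the summit at the same base. In replicate 1 no peak overlapped it. The nearest replicate 1 peak, with a summit 101 bp upstream of the start, had a signal of 2.47 and rank 29538. The promoter candidate of ufd-2 thus rested on replicate 2, and that of ufd-3 mainly on replicate 1. The other ufd-2 candidates lay in its coding exons at 961 and 2657 bp, with signals of 9.81 and 5.21 and ranks 6476 and 26898. The candidate at 961 bp overlapped a peak of rank 19533 in replicate 1 and of rank 24185 in replicate 2. That at 2657 bp had no counterpart and was nearer to pdha-1, the gene of a pyruvate dehydrogenase subunit.

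**Figure D3:**
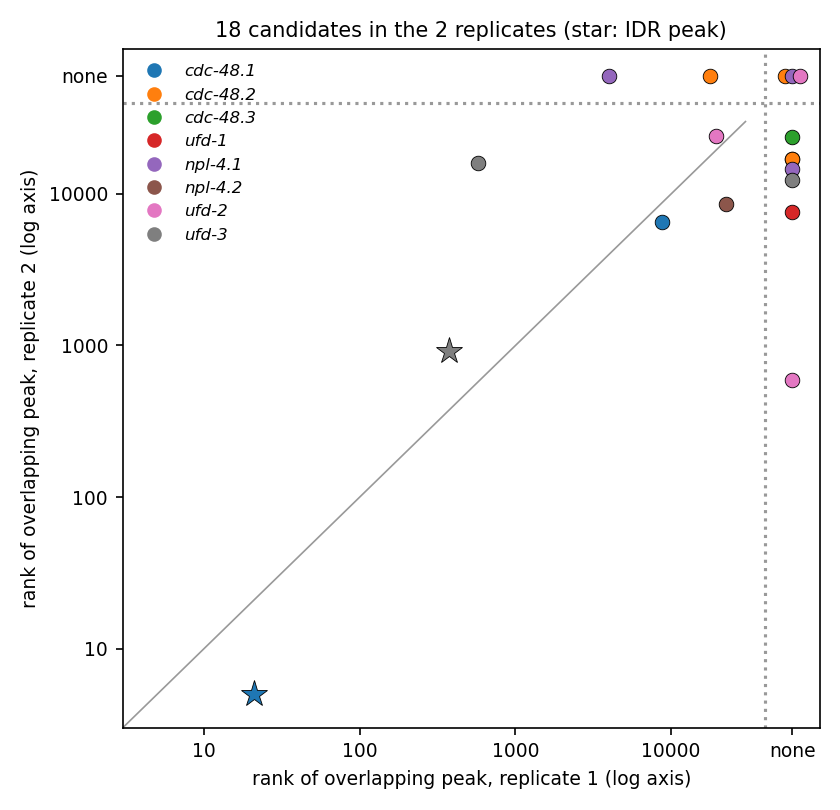
Rank of the strongest overlapping peak in replicate 1 against that in replicate 2 (log axes) for the 18 candidates, coloured by gene, with stars for the IDR peaks and points beyond the dotted lines for candidates with no overlapping peak. A pair of cdc-48.2 candidates shares its replicate 2 peak and coincides. The cdc-48.1 star lies at ranks 21 and 5, and 6 of the 18 candidates have an overlapping peak in both replicates. This was not counted over all candidates, so whether it is usual for the list is not known.

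Across the 18 candidates, 8 overlapped a peak of replicate 1, 13 a peak of replicate 2, 6 both and 3 neither. The pooled list was called from the same alignments, so these overlaps are not independent support. Both IDR peaks were among the 6. Under the same rule the replicates alone had 14 and 12 peaks at these genes, of which 6 and 1 overlapped no candidate, the strongest of these at rank 7629 in replicate 1. Of the summits, 10 lay between genes and 8 in coding exons, and 9 of the 18 were nearest the start of the gene they were assigned to. The counts in this paragraph were not made over all candidates, so whether they are usual for the list is not known.

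Beyond the 3000 bp limit, up to 6000 bp from a start, lay a further 20 assignments of candidates to these genes, with ranks from 264 to 29974 and 1 IDR peak among them. The weakest was the npl-4.1 candidate of rank 29974, at 5958 bp from npl-4.2. The IDR peak, of signal 32.2 and rank 264, lay 4342 bp past the cdc-48.1 start, beyond the end of the gene and nearest the start of mnk-1. The strongest of npl-4.2 beyond the limit had rank 2492. Just inside the limit stood the candidates at 2977 bp from npl-4.1 (signal 6.49) and at -2927 bp from ufd-3 (31.3), and just outside it those at -3275 bp from cdc-48.1 (12.1) and -3465 bp from npl-4.2 (13.6).

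**Figure D4:**
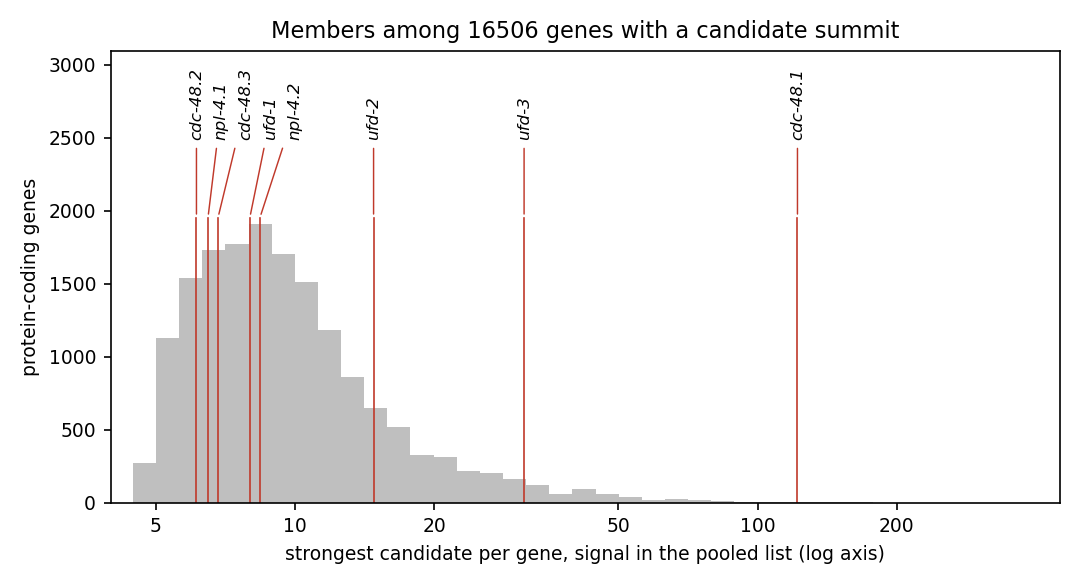
Number of protein-coding genes by the signal of their strongest assigned candidate (log axis) for the 16506 genes with a candidate, with red lines at the 8 genes. The lines of cdc-48.2, npl-4.1, cdc-48.3, ufd-1 and npl-4.2, at signals of 6.13 to 8.4, stand in the bulk of genes, whereas cdc-48.1, at 122, stands in the far upper tail.

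Core motifs were a feature that the choice of peaks did not use. ACGTG or GCGTG lay within 50 bp of the summit at 3 of the 18 candidates (16.7%). This share was 16.4% over all candidates, 49.4% over the 530 IDR peaks and 16.6% over windows of the same 101 bp centred 150 bp upstream of protein-coding gene starts. The 3 included both IDR peaks, and the remaining one was a cdc-48.2 candidate of rank 23067 inside ctns-1, with a GCGTG at -34 bp from its summit. At cdc-48.1 the cores, TGCGTG and AGCGTG with the base before each, lay 128 and 141 bp upstream of the start, both on the gene side of the summit at 169 bp. Neither TACGTG nor CACGTG, held by 13.2% and 7.92% of IDR peaks, was in this window. At the ufd-3 distal peak the CACGTG, which counts as an ACGTG on each strand, lay 1 to 2 bp from the summit. CACGTG was held by 2.18% of all candidates.

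Cores also lay upstream of genes that had no promoter candidate. In the 1000 bp before the first start, cdc-48.1, ufd-1 and ufd-2 had 3 cores each, cdc-48.3 had 2, and cdc-48.2, npl-4.1 and npl-4.2 had 1. None lay upstream of ufd-3, although it had a promoter candidate of rank 1566. At least 1 core was found for 75.8% of all protein-coding genes, with a median of 1. The ufd-1 cores included a CACGTG palindrome 140 to 141 bp upstream, where no candidate was called. The ufd-2 cores included another 19 to 20 bp upstream, well away from its summit at 416 bp. The lone cdc-48.2 core, an ACGTG, lay 233 bp upstream, also without a candidate. The cores of npl-4.1 and npl-4.2, each 420 bp upstream, lay in the shared stretch, where peaks could not be assessed.

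**Figure D5:**
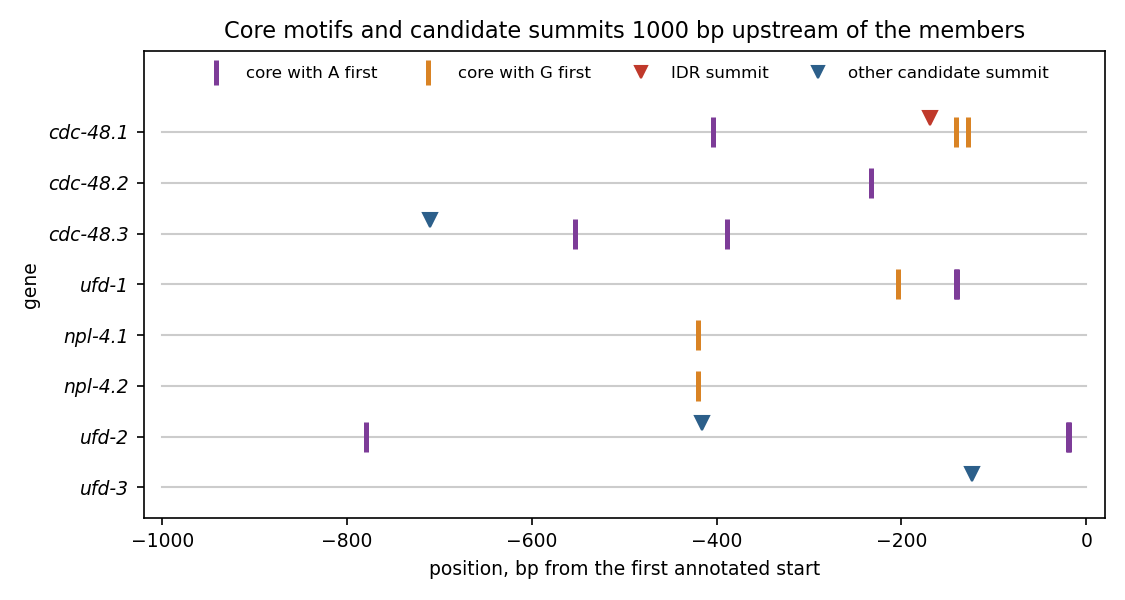
Positions of the core motif in the 1000 bp before the first annotated start of each gene (ticks, purple where the core begins with A and orange where it begins with G) and of candidate summits (triangles, red for IDR peaks). The cores of cdc-48.1 at -128 and -141 bp stand beside its red summit at -169 bp, while ufd-1 has cores at -140 to -204 bp and no summit.

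Other genes of the pathway were counted under the same rule. Of 106 symbols in 6 lists, 103 were in the annotation, and 9 of these (8.74%) had an IDR summit, beside 4.25% of all protein-coding genes. Only 2 of the 9, rpn-3 and tim-1, were the gene with the nearest start. Among 16 further CDC-48 cofactors and substrate-delivery factors, ubxn-3 alone had one (rank 227, signal 34.3). UBXN-3, the worm FAF1, works with CDC-48, UFD-1 and NPL-4 in taking down the replication machinery. This summit lay 1347 bp past the ubxn-3 start and 156 bp upstream of F48A11.4. Its signal was 17.2 in replicate 1 and 14.6 in replicate 2. Of these 16 genes, 1 had a summit among the 530 strongest of replicate 1 and 1 among those of replicate 2. The ubxn-3 peak had rank 627 in replicate 2. The median best rank of the 16 genes was 9224.5, beside 8576.5 over all genes with a candidate.

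Of the 32 proteasome subunit genes, 4 had an IDR summit. These were rpt-1, an ATPase of the base (rank 132, nearest snr-4), pbs-2, a core subunit (214, nearest tba-2), rpn-3, a lid subunit (260, 214 bp upstream of its own start), and rpn-13, a ubiquitin receptor (389, nearest trmt-10C.2). The median best rank of the proteasome genes was 2096.5. The count depended on the replicate, with 2 of the 32 having a summit among the 530 strongest of replicate 1 and 5 among those of replicate 2. In replicate 1 the rpt-1 and rpn-3 peaks had ranks 1158 and 1097, and in replicate 2 the rpn-13 peak had rank 1376. None of 8 genes of endoplasmic reticulum-associated degradation and none of 10 of ubiquitin and its E1 and E2 enzymes had one, with median best ranks of 7735 and 1983. Of the latter 10, 2 had a summit among the 530 strongest of replicate 1 and 1 among those of replicate 2. Of 19 other AAA ATPases, 2 had one, the mitochondrial bcs-1 (rank 387, nearest rpl-5) and the membrane-scission factor vps-4 (530, nearest gsa-1). In replicates 1 and 2 the bcs-1 peak had ranks 778 and 850 and the vps-4 peak 289 and 2750, so 1 of the 19 genes had a summit among the 530 strongest of replicate 1 and 0 among those of replicate 2. Of 18 genes of replisome and mitotic substrates, 2 had one. The GINS subunit gene psf-3 had a summit of rank 24 and signal 83 at 2403 bp past its start, which was 264 bp upstream of wwp-1. The replisome protein gene tim-1 had one of rank 386 at 239 bp upstream of its own start. Among the 530 strongest, 2 of the 18 had a summit in replicate 1 and 1 in replicate 2, where the tim-1 peak had rank 981.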

How the data were processed

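The deposited files were lists of ChIP-seq peaks on the ce11 assembly, 1 for each of 2 replicates and 1 called from both replicates' alignments together, each with a control, per the text deposited with the samples. A shorter list had been thresholded by the irreproducible discovery rate (IDR) with the optimal rule, also per that text. The replicate 1 list was labelled as peaks, and the replicate 2 and pooled lists as peaks and background. The aligner, the peak caller, its settings and the handling of reads that map to several places are not stated in the labels or headers. The signal value and the −log10 q-value of each peak are the authors' own, as deposited, and peaks were ranked by them within each list only. At the top of the pooled list 928 peaks shared the highest −log10 q-value. The lists hold no read counts, so depth is unknown. The ce10 lists were not used here.

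Summits (start plus offset, counted from 1) were set on the WBcel235 annotation of Ensembl release 115 and the RefSeq genome sequence of the same assembly. A summit belonged to a gene if it lay inside the gene or within 3000 bp of any of its annotated transcript starts, and a summit could count for several genes. Nearest starts were taken over protein-coding genes only. Peaks of the lists were matched by an overlap of at least 1 bp. The motifs ACGTG and GCGTG were searched on both strands within 50 bp either side of the summit. Proteins were translated from the annotated coding exons and aligned end to end with Biopython 1.88 (BLOSUM62). The assignment of summits to genes was tested on simulated data.

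The 8 genes and the gene lists were chosen with earlier results of these data known. All 8 are named, with every candidate peak they have, the genes that share those summits, and, from each pathway list, genes with an IDR summit. The signal chose the peaks, and there was 1 group of 2 replicates with no second condition, so no test was run and no p-value is given. Alternatives covered the window, the kind of start, the ranking, each replicate alone, the overlap rule and the motif window. The nearest-start alternative was added after seeing the data.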

Additional observations from a re-analysis of the deposited data

How the results depend on the processing

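Of 83 alternative values, 52 stayed within the limits set. For counts the limit was 1.5 times, and for ranks it was the standard deviation of the replicate ranks. This rank limit was wide where the replicates disagreed, and allowed no shift where a replicate had no peak at the gene. Settings that left a gene without a peak are not among the 83. The number that stayed is therefore no measure of how stable the ranks were. No paired analysis was possible because there was 1 group. With 1 kb around starts the members had 8 candidates, 1 IDR peak and 4 members with a candidate, and with 5 kb they had 32 candidates. Counting only the nearest start gave 9 candidates and 1 IDR peak, and the IDR peaks of above-median signal gave 1. From each replicate alone the number of peaks among its 530 strongest was 1 to 2, and the number of all peaks 12 to 14. The members with an IDR summit were then 1 to 2, and 1 with 1 kb, the nearest start or the IDR peaks of above-median signal. Ranking by q-value gave 464.5 for both cdc-48.1 and ufd-3, which tied at the highest value, 11301 for ufd-1 and 18158 for npl-4.1. With 5 kb the best rank was 5357 for cdc-48.2, 2492 for npl-4.2 and 9626 for ufd-1. For ufd-3 it was 1566 with 1 kb and with the nearest start only, and for npl-4.1 it was 19357 with the latter. From either replicate alone the best rank was 16934 to 17629 for cdc-48.2, 7596 for ufd-1 (replicate 2), 3977 for npl-4.1 (replicate 1), 8554 to 21461 for npl-4.2, 595 to 19533 for ufd-2 and 374 to 913 for ufd-3. The cause of these shifts was not tested. The candidates with a core numbered 1 within 25 bp, 5 within 100 bp and 1 for ACGTG only, and 3 to 6 from either replicate alone.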
